A study of Danio rerio with 16 samples.

Results

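Genes that build the meiotic chromosome and carry out recombination were examined in cultured zebrafish ovary. The genes were taken by name: sycp1, sycp2, sycp3, spo11, dmc1, hormad1, rec8b, rnf212b, and msh4. Of these 9 genes, 8 were found in the deposited tables under those names, on 9 of the 26910 rows that the 3 tables share, because sycp1 has a row on chromosome 6 and a second row on an alternate scaffold of the genome. Rnf212b was not analysed here.

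Ovaries of wild-type adult fish were cut into sections and incubated for 6 hours at 28 °C, and poly(A) RNA was sequenced from 4 libraries in each of 4 groups. The groups were the solvent DMSO alone (control), 100 nM of the peptide hormone phoenixin-20 (PNX-20), 5 µM of A8535, and 5 µM of PT-91. PNX-20 is a proposed ligand of the orphan receptor SREB3, and A8535 and PT-91 are synthetic agonists of the related receptor SREB1. The study chose ovaries in which follicles of primary and early secondary growth prevailed, and the sections of one fish were shared out among the treatments. The labels do not tell which libraries come from the same fish.

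Meiotic recombination starts when Spo11 cuts both strands of the DNA along a protein axis that holds the sister chromatids. Dmc1 then leads the broken end into the homologous chromosome, Msh4 with its partner Msh5 stabilizes the joint molecules that become crossovers, and the synaptonemal complex zips the homologs together. In female fish these steps take place in small early oocytes, and the oocyte then rests at the end of prophase while it grows. Oogonia persist in the adult zebrafish ovary, so that cells at early meiotic stages can lie beside large growing follicles. In bulk RNA such as this, fewer cells of a type and less RNA per cell cannot be told apart.

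Libraries held 10232545 to 15102989 counted reads on the shared rows and 19047 to 23967 rows with a read. Mitochondrial rows took 0.190% to 1.30% of the counts in control libraries and 0.435% to 1.57% in PNX-20 libraries. In the agonist groups the range was 0.570% to 3.95% (A8535) and 0.792% to 4.08% (PT-91). In 3 libraries, A8535 2, PT-91 1, and PT-91 2, this share was highest and the fewest rows were detected. Levels are given in CPM, the counts of a row per 1000000 reads of its library, with library totals scaled over all 16 libraries. The tissue carried oocyte markers, with 10 of 10 present and a summed level of 5198 to 9958 CPM. H1m, for the linker histone of the oocyte, had a mean of 2591 CPM. Markers of oogonia and early meiotic germ cells summed to 255 to 620 CPM over the 7 of 9 that were found. Of these, nanos3 averaged 103 CPM and piwil1 99.3 CPM, while dmrt1 was at 0.92 CPM and had no read in 2 libraries. Markers of granulosa cells (6 of 8 found) summed to 17.4 to 119 CPM, those of theca and steroid-producing cells to 217 to 529 CPM, those of smooth muscle and stroma to 24.3 to 201 CPM, those of endothelium to 15.5 to 42.6 CPM, those of blood to 0.487 to 43.6 CPM, and those of leukocytes to 1.36 to 35.9 CPM. The defining early germ cell markers nanos2 and foxl2l and the granulosa markers foxl2a and foxl2b were not analysed here. The sums of these lists therefore may not follow the number of early germ cells or granulosa cells.

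Some libraries shared a pattern in how reads were divided between gene copies. Of 2641 genes with 1 row on a chromosome and 1 on an alternate scaffold, 806 had more than 5 CPM in every library and a share of reads on the chromosome row that varied by an SD of more than 10 percentage points. Members and the other meiosis genes described here were left out of these 806. Correlations of these shares between libraries, across genes, fell into separate ranges: 7 pairs of libraries had r of 0.835 to 0.875, and the other 113 pairs had r of -0.33 to 0.10. The 7 pairs form 3 sets that cross the treatments. Set 1 holds Control 1, A8535 4, and PT-91 4, set 2 holds Control 3 and A8535 1, and set 3 holds PNX-20 3, A8535 3, and PT-91 3. The other 8 libraries belong to no set. Whether the libraries of a set share a fish was not tested.

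Levels of the members ranged from moderate to barely detectable. Spo11, which encodes the topoisomerase-like enzyme that opens the DNA, had the highest mean, at 28.8 ± 7.52 CPM (SD, n = 16). Its level ranged from 13.4 to 44.9 CPM and rested on 224 to 561 reads in a library. For a comparison between genes, CPM was divided by the deposited gene length in kilobases. On this scale of CPM per kilobase, spo11 stood at 18.6 ± 4.86 and above 73.0% of the 19216 rows that passed the filter on low counts.

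The synaptonemal complex genes followed, row by row. Sycp2, a component of the lateral element that lines each homolog, was at 4.34 ± 4.22 CPM per kilobase. The row of sycp1 on the alternate scaffold was at 3.53 ± 2.80 CPM per kilobase and its chromosome row at 1.14 ± 1.45 CPM per kilobase, where the protein forms the transverse filaments between the homologs. With its rows summed, sycp1 was at 4.66 ± 3.82 CPM per kilobase, above sycp2 in the mean and in 9 of 16 libraries and below spo11 in all 16. In CPM, not corrected for length, the summed rows were above spo11 in 2 libraries, A8535 2 (31.8 CPM) and PT-91 2 (54.8 CPM). Sycp3, the partner of Sycp2 in the lateral element, was at 0.716 ± 0.520 CPM per kilobase. The remaining members had few reads. Msh4 was at 0.238 CPM per kilobase, hormad1, an axis protein of unsynapsed chromosomes, at 0.218, dmc1 at 0.184, and rec8b, a copy of the kleisin subunit of meiotic cohesin, at 0.0480.

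Spo11 was above sycp2 in 16 of 16 libraries. No other neighbours in this order were separated in every library: sycp2 was above the alternate row of sycp1 in 7 of 16, that row above the chromosome row in 14, the chromosome row above sycp3 in 7, sycp3 above msh4 in 13, msh4 above hormad1 in 5, hormad1 above dmc1 in 10, and dmc1 above rec8b in 7. Over the 16 libraries, dmc1 had 46 reads and none in 8 libraries, rec8b had 24 reads and none in 10, hormad1 had 90 reads and none in 2, msh4 had 116 reads and none in 4, and sycp3 had 167 reads and none in 1. A count of 0 allows up to 3 reads, which was 0.179 to 0.333 CPM in a single library. Such limits cover counting error only.

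In the GRCz11 annotation of the files, the members are protein-coding genes on 7 chromosomes. Spo11 (6544585 to 6574120, plus strand) and sycp2 (12213658 to 12228357, plus strand) are on chromosome 23. Sycp3 is on chromosome 25 (19578048 to 19584987, minus strand), dmc1 on chromosome 12 (19356683 to 19362190, plus strand), and hormad1 on chromosome 16 (29551026 to 29557612, minus strand). Msh4 is on chromosome 17 (43892203 to 43919725, plus strand) and rec8b on chromosome 24 (12690163 to 12734583, plus strand). The position of sycp1 is given with its rows.

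**Figure D1:**
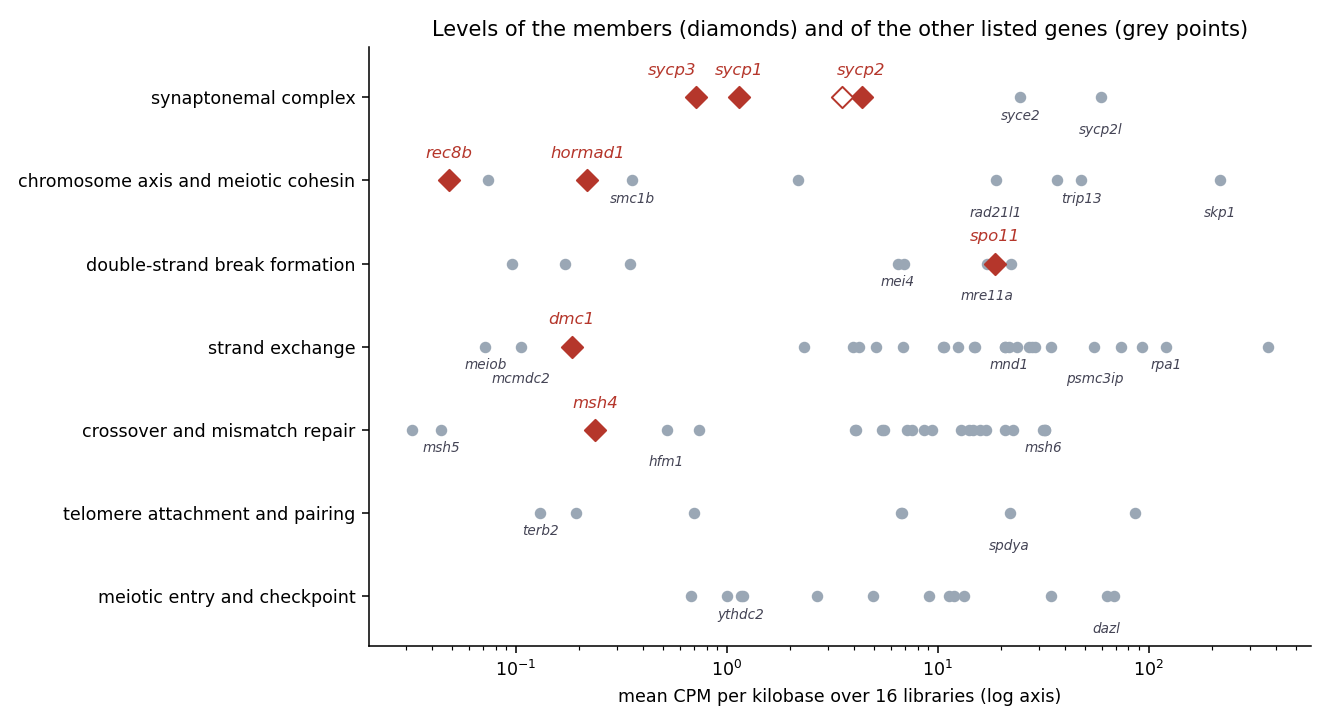
Mean level over 16 libraries in CPM per kilobase (log axis) for the members (filled diamonds, with the alternate-scaffold row of sycp1 as an open diamond) and for 83 other genes of 7 meiosis lists (grey points, a few of them named). Spo11, at 18.6 CPM per kilobase, lies in the break formation list below nbn (22.2) and above mre11a (17.0), rad50 (6.93), and mei4 (6.46). Ccdc36, tex15, and ankrd31 of that list lie at 0.348 or lower. Rec8b, dmc1, hormad1, and msh4 lie below 0.3.

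Except for spo11, members were lower than most genes that act beside them. Of 83 other genes in 7 lists of meiosis and recombination, 30 were above spo11 per kilobase, 58 above sycp2, 69 above sycp3, 75 above dmc1, and 81 above rec8b. Dmc1 had a mean of 0.184 CPM per kilobase, but mnd1 and psmc3ip, whose products form the complex that assists Dmc1 in strand exchange, had 21.6 and 55.2 CPM per kilobase. Msh4 at 0.238 and its partner msh5 at 0.0442 CPM per kilobase were both low. Hfm1, a helicase of the same crossover pathway, had 0.518. Rec8b was at 0.0480, and the meiotic cohesin subunit gene smc1b at 0.356 CPM per kilobase, while rad21l1, another meiotic kleisin, had 18.8. Sycp2l, a paralog of sycp2 that is known from mouse oocytes, had 59.1 CPM per kilobase, and syce2, a central element gene, had 24.6. Genes that act in all dividing or damaged cells led these lists, with rpa3 at 368 CPM per kilobase, skp1 at 217, and rpa1 at 121.

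Sycp1 reads were divided between its rows in proportions that differed widely between libraries. The chromosome row (chromosome 6, 49052735 to 49061219, plus strand, GRCz11) and the row on scaffold NW_018394668.1 (153860 to 162605, plus strand) have the same deposited length of 3579 bases. How reads that match both rows were counted was not tested, nor was its part in the share or the summed level. The chromosome row also overlaps si:ch211-105j21.9 on the opposite strand, and no source used here gives the strand setting of the counting. Over all libraries 23.6% of sycp1 reads were on the chromosome row. The lowest share was 0.633% in PNX-20 3, where 1 of 158 reads was on it (95% exact Clopper-Pearson interval 0.0160% to 3.48%). The highest was 58.5% in A8535 1, with 83 of 142 reads (interval 49.9% to 66.7%). The share was under 5% in 4 libraries, 25% or more in 6, and between these in 6.

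Libraries of a set had shares close to one another, although their treatments differed. Control 3 and A8535 1, which form set 2, had 57.3% (48.3% to 65.9%) and 58.5%, whereas Control 1, 2, and 4 had 6.25%, 27.0%, and 11.1%. In set 3 the shares were 0.633% (PNX-20), 5.49% (A8535), and 0.926% (PT-91), with intervals that overlap one another and end at or below 10.2%. In set 1 they were 6.25%, 3.23%, and 11.1%, on 16, 31, and 27 reads. Their intervals reach 30.2%, 16.7%, and 29.2% and overlap those of set 3. Low shares also occurred in libraries of no set, such as 1.03% in PNX-20 1 and 6.12% in PT-91 1. Each treatment group held libraries of 6.25% or less and of 30.0% or more.

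**Figure D2:**
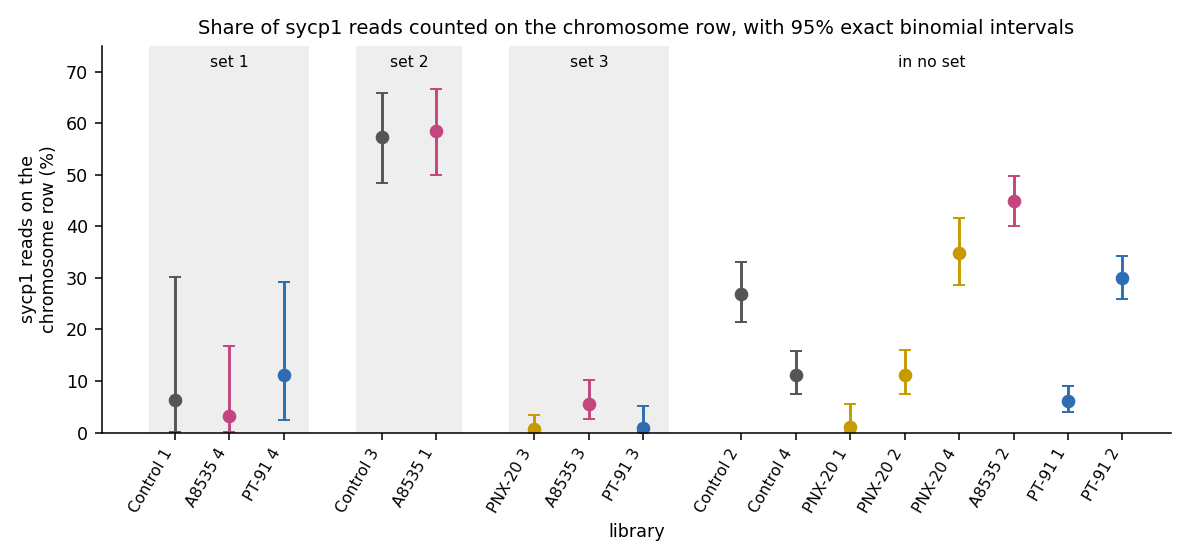
Percentage of sycp1 reads that were counted on the chromosome row in each library, with 95% exact binomial intervals and colours for treatment. Shaded blocks are the 3 sets of libraries. The libraries of a set lie together, as at 57.3% and 58.5% in set 2, while each treatment spans low and high shares.

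The levels of both sycp1 rows also differed widely between libraries, with r of 0.56 between the rows in log2 CPM. On the chromosome row, reads numbered 1, 65, 75, and 26 in controls 1 to 4, 1, 26, 1, and 76 in PNX-20, 83, 191, 9, and 1 with A8535, and 23, 148, 1, and 3 with PT-91. Every group thus had a library with a single read and another with at least 75 reads. The alternate row had 15, 176, 56, and 208 reads in the control, 96, 206, 157, and 142 with PNX-20, 59, 235, 155, and 30 with A8535, and 353, 346, 107, and 24 with PT-91. Its highest levels, 28.9 and 38.4 CPM, were in PT-91 1 and PT-91 2, which also had the highest mitochondrial shares of that group. Across the 16 libraries the log2 level of the alternate row had r of 0.64 with the mitochondrial share, -0.65 with the number of rows detected, and r of 0.63 with the summed blood markers and -0.55 with those of early germ cells, given as descriptions of points that share library and depth. The part of these measures in the level was not tested. The biological coefficient of variation that edgeR estimated for the chromosome row was 1.25 to 1.44 over the comparisons, above that of 96.7% to 98.6% of all rows tested.

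**Figure D3:**
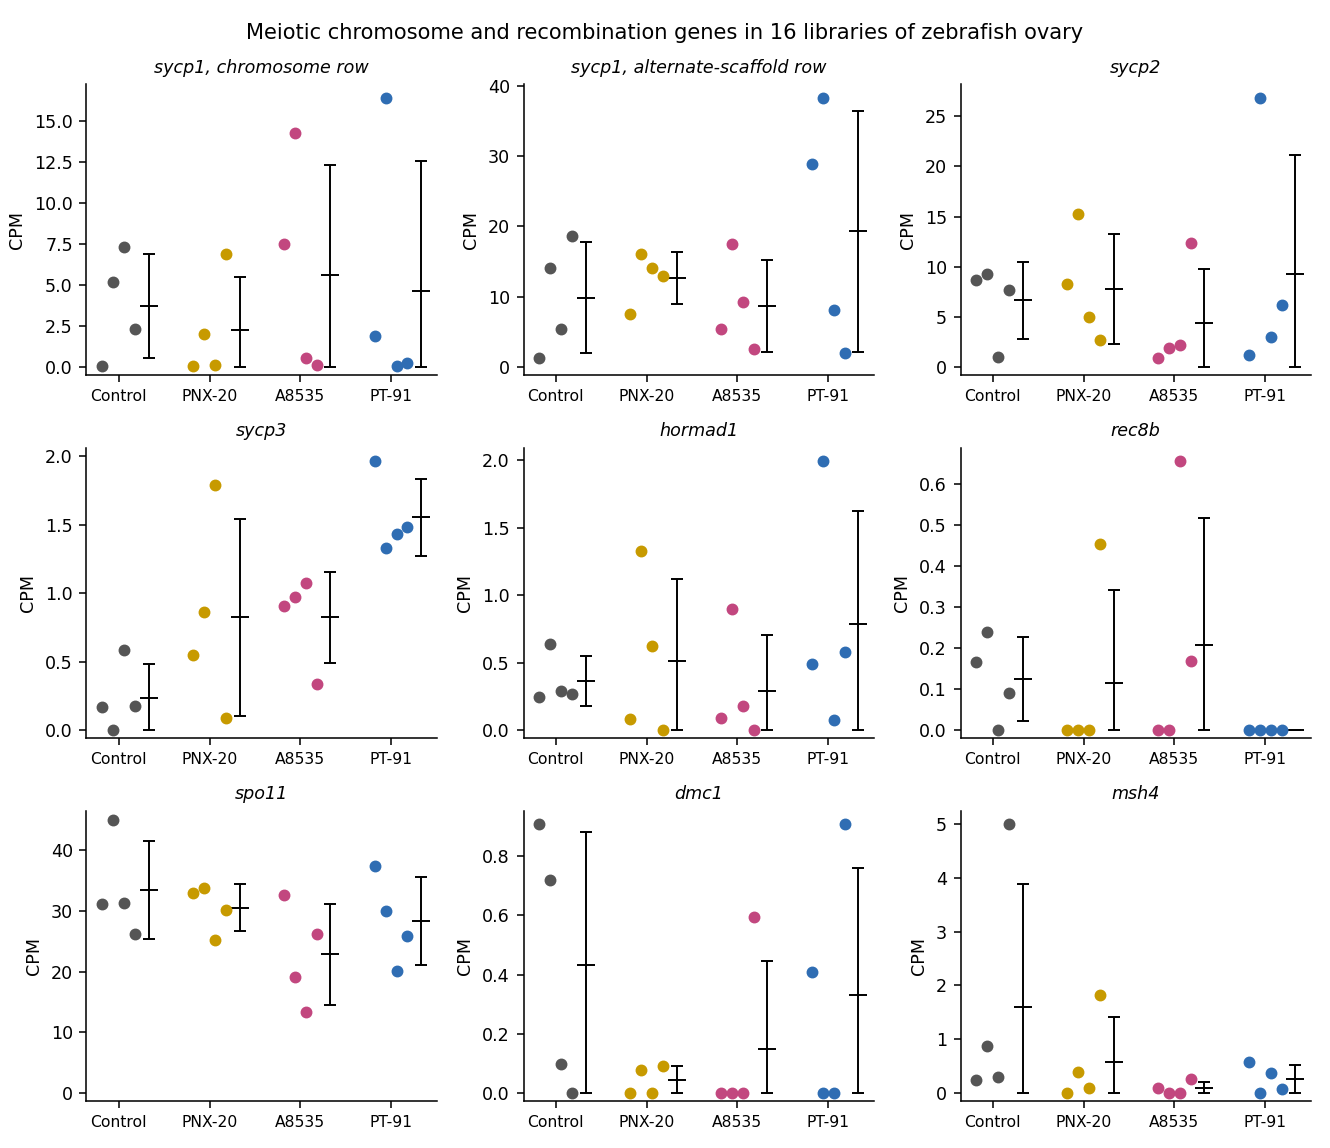
Level of each member row in CPM (y axes, linear and different between panels) in the 4 libraries of each treatment. Points are libraries in the order of their number, and the black mark beside them is the mean with the SD, drawn down to 0 at most. Sycp3 is the one panel in which the 4 PT-91 libraries (1.33 to 1.97 CPM) all lie above the 4 controls (0 to 0.58 CPM), and spo11 is the one with 10 or more CPM in every library.

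Within the sets, levels of sycp2 and of the alternate row of sycp1 were closer together than within the treatment groups, and those of sycp3 were not. In set 1, sycp2 had 8.67, 12.4, and 6.19 CPM in Control 1, A8535 4, and PT-91 4. In set 2 it had 0.974 and 0.904 CPM, and in set 3 it had 5.01, 2.21, and 3.01 CPM. The A8535 group contains 1 library of set 1 and its 4 levels of sycp2 were 0.904, 1.87, 2.21, and 12.4 CPM, so that its highest library is the one of set 1. The alternate row of sycp1 had 1.24, 2.54, and 1.98 CPM in set 1, 5.45 and 5.33 CPM in set 2, and 14.0, 9.26, and 8.06 CPM in set 3. Dmc1 had 11, 7, and 11 reads in the 3 libraries of set 1, 1 and 0 reads in set 2, and none in set 3. Other members of few reads varied inside sets. Hormad1 had 3, 0, and 7 reads in set 1. In set 3, rec8b had 0, 11, and 0 reads and msh4 had 1, 0, and 5, for PNX-20, A8535, and PT-91. Sycp3 had 0.165 CPM in the control of set 1, 0.339 CPM with A8535, and 1.49 CPM with PT-91. In set 2 it had 0.584 CPM in the control and 0.904 CPM with A8535. Set 3 holds no control, and sycp3 there had 1.79 CPM with PNX-20, 1.07 CPM with A8535, and 1.43 CPM with PT-91. Outside the sets dmc1 had 9 reads in Control 2, 5 in PT-91 1, and 0 or 1 in the remaining 6.

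The spread of log2 CPM within sets was compared with that within treatment groups, as a description. Within sets it covers the 8 libraries of the sets, and within groups all 16 libraries. Libraries of a set differ in treatment, so the spread within sets includes differences between treatments, which the spread within groups leaves out. A8535 2, PT-91 1, and PT-91 2, the libraries of the highest mitochondrial share, are in no set and enter the group spread only. Their part in the ratios below was not tested. For sycp2 the pooled SD was 0.48 within sets (5 degrees of freedom) and 1.49 within treatment groups (12 degrees of freedom). For sycp1 it was 0.61 and 2.54 on the chromosome row and 0.40 and 1.42 on the alternate row. The median of all 19216 rows was 0.40 within sets and 0.82 within groups, a ratio of 0.53, and 91.9% of rows had a smaller spread within sets. Ratios of 0.24 for sycp1, 0.28 for its alternate row, and 0.32 for sycp2 were matched or undercut by 8.81%, 13.4%, and 17.9% of rows. Spo11 had 0.31 within sets and 0.38 within groups, and sycp3 had 0.81 and 0.82, where the values within sets include any difference between treatments.

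**Figure D4:**
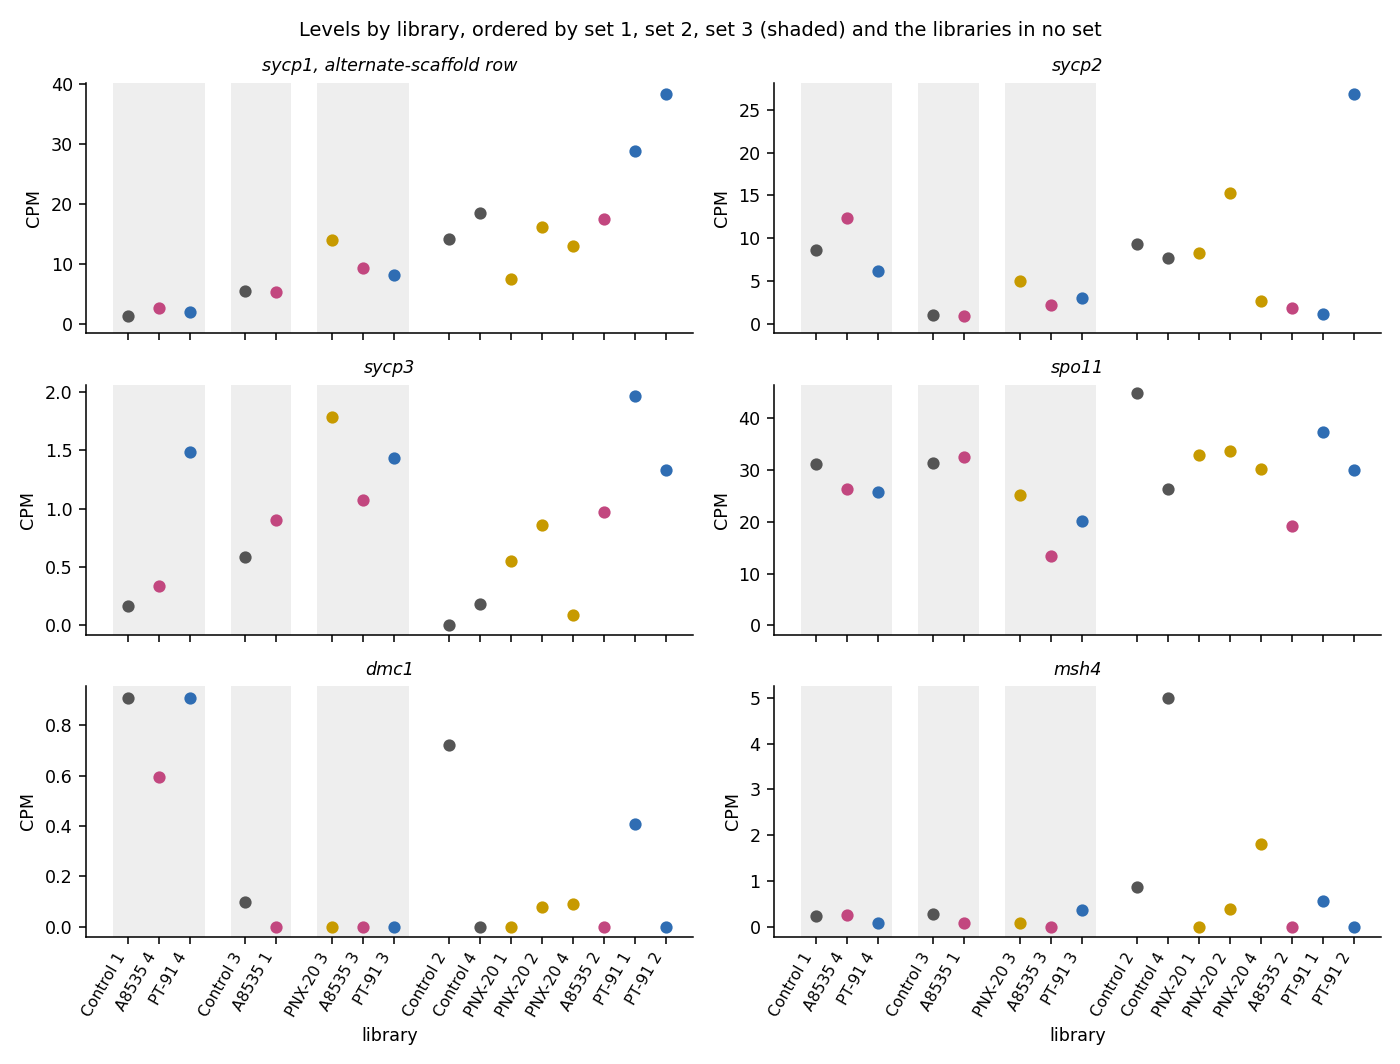
Level in CPM (y axes, linear) of 6 member rows in each library, with the libraries of set 1, set 2, and set 3 in shaded blocks and the 8 others to the right, coloured by treatment. Sycp2 and the alternate row of sycp1 differ between sets more than inside them. Of all rows, 91.9% had a smaller spread within sets than within treatment groups. Dmc1 and msh4 did not pass the filter on low counts. Dmc1 was at 0.59 to 0.91 CPM (7 to 11 reads) in set 1 and at 0 in set 3, where msh4 had 1, 0, and 5 reads. Sycp3 was at 0.165 CPM in the control, 0.339 CPM with A8535, and 1.49 CPM with PT-91 in set 1, on a single library of each. In set 3, which holds no control, sycp3 was at 1.79 CPM with PNX-20, 1.07 CPM with A8535, and 1.43 CPM with PT-91.

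PNX-20 was compared with the control to ask whether the endogenous peptide alters these genes. Of the 9 member rows, 4 passed the filter on low counts and none was called by edgeR's quasi-likelihood test at an adjusted p under 0.05 (0 of 17118 rows in all, 0%; Benjamini-Hochberg adjustment). At an unadjusted p under 0.05 there were 0 member rows and 430 rows in all (2.51%), and DESeq2 called 37 rows (0.184%; 3.46% at an unadjusted p under 0.05), none of them a member. The groups overlapped for every member, whereas they were separate for 1.66% of the rows tested. Spo11 was at 31.2, 44.9, 31.3, and 26.3 CPM in the control and 32.9, 33.8, 25.2, and 30.2 CPM with PNX-20. These groups overlapped, and the log2 fold change was -0.13 ± 0.28 (SE; 95% interval -0.75 to 0.49) that excludes a 2-fold change in either direction. For sycp2 it was 0.23 (interval -1.42 to 1.87), and for sycp1 it was -0.71 (-3.72 to 2.31) on the chromosome row and 0.36 (-1.20 to 1.92) on the alternate row. These wide intervals include changes of more than 2-fold in either direction. Sycp3 had 7, 11, 20, and 1 reads with PNX-20 against 2, 0, 6, and 2 in the control, or 0.822 ± 0.72 against 0.232 ± 0.25 CPM, with groups that overlapped. It did not pass the filter here, and DESeq2 gave it a log2 fold change of 1.87 (unadjusted p = 0.122, adjusted p = 0.998).

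A8535 was compared with the control for the effect of the first SREB1 agonist. Again 4 member rows were tested and none was called (0 of 17377 rows, 0%), with 0 member rows and 431 rows in all (2.48%) at an unadjusted p under 0.05. DESeq2 called 4 rows (0.0194%), none of them a member. The groups overlapped for every member, against 2% of rows in which they were separate. Spo11 had 32.5, 19.1, 13.4, and 26.3 CPM with A8535 against 26.3 to 44.9 CPM in the control, so that 2 libraries lay below every control and 2 did not. Its log2 fold change was -0.55 ± 0.34 (interval -1.32 to 0.22; edgeR adjusted p = 0.999). In sets 1 and 2, where A8535 and control libraries stand together, spo11 was at 26.3 and 32.5 CPM with A8535 against 31.2 and 31.3 CPM in the control. Sycp2 had a log2 fold change of -0.62 (-2.66 to 1.42), sycp1 had 0.61 (-2.42 to 3.63), and its alternate row had -0.17 (-2.01 to 1.68). Without A8535 4 the value of sycp2 was -1.99 (edgeR adjusted p = 0.936). Sycp3 had 10, 13, 18, and 4 reads with A8535, or 0.822 ± 0.33 CPM against 0.232 ± 0.25 CPM in the control, and the groups overlapped. It did not pass the filter, and its log2 fold change was 1.92 in DESeq2 (unadjusted p = 0.0709, adjusted p = 0.9999). Limma-voom filtered rows over all 16 libraries, including those of PT-91, the group where sycp3 was highest. It gave sycp3 2.18 (unadjusted p = 0.0481, adjusted p = 0.9995). With the sets of libraries as a block in limma-voom the value was 1.43 (unadjusted p = 0.0705, adjusted p = 0.663). That p may be too small for sycp3, as described below for PT-91.

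Msh4 did not pass the filter in this comparison. It had 3, 11, 3, and 56 reads in the control and 1, 0, 0, and 3 with A8535, with groups that overlapped at 3 reads, and Control 4 held most of the reads. When no filter was applied, edgeR gave an unadjusted p of 0.0156 and an adjusted p of 0.960, and DESeq2 gave a log2 fold change of -4.28 with an unadjusted p of 0.00304 and an adjusted p of 0.531. It was the 1 member row under 0.05 in DESeq2, as were 3.62% of all rows.

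PT-91 was compared with the control for the effect of the second agonist, and sycp3 was the one member whose groups did not overlap. It had 24, 12, 19, and 18 reads with PT-91 against 2, 0, 6, and 2 in the control, or 1.55 ± 0.28 against 0.232 ± 0.25 CPM (SD, n = 4 each). Every PT-91 library was above every control, which held for 1.22% of the rows tested, and groups that did not overlap in either direction made up 2.73%. The log2 fold change was 2.78 ± 0.93 (SE; 95% interval 0.71 to 4.85) with an unadjusted p of 0.0133 in edgeR. Sycp3 passed the filter on low counts only in the comparisons with PT-91, the group where it was highest, and failed it for PNX-20 and A8535 against the control. When no filter was applied, the value was 2.68 with an unadjusted p of 0.0331 and an adjusted p of 0.654. It did not pass the adjustment (edgeR adjusted p = 0.712, DESeq2 adjusted p = 0.265). At an unadjusted p under 0.05 there was 1 of 5 member rows, sycp3 itself, so that the count says nothing of the members as a group, and 1177 rows in all (6.81%), of which 920 were higher (5.33%) and 257 lower (1.49%). EdgeR called 0 of 17276 rows at the adjusted threshold (0%), and DESeq2 called 35 (0.179%; 6.67% at an unadjusted p under 0.05), none of them a member.

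The sycp3 difference rested on few reads. When each of the 8 libraries was left out in turn, the log2 fold change was 2.36 to 3.66 and the unadjusted p was 0.00820 to 0.0463, in fits that sycp3 entered through its PT-91 reads as before. Without the 3 libraries of the highest mitochondrial share it was 2.65 with an unadjusted p of 0.0543 and an adjusted p of 1.00. With the sets of libraries as a random block in limma-voom, the value was 2.67 (unadjusted p = 0.00318, adjusted p = 0.713). That fit applied the same correlation of 0.74 to all rows, whereas sycp3 had an SD of 0.81 within sets and 0.82 within groups. The SD within sets includes differences between treatments and the SD within groups does not. These SDs thus do not tell whether that correlation holds for sycp3. If it does not hold, the p of that fit may be too small for sycp3. Limma-voom without the block gave 3.14 (unadjusted p = 0.00514, adjusted p = 0.740). Across the 16 libraries the log2 level of sycp3 had r of 0.51 with the mitochondrial share, -0.54 with the number of rows detected, 0.51 with the summed markers of smooth muscle and stroma, and 0.45 with those of granulosa cells. The r was 0.45 with endothelium markers, -0.45 with those of theca and steroid-producing cells, and -0.41 with those of early germ cells. With oocyte, blood, and leukocyte markers it was -0.25, 0.19, and 0.21. Smooth muscle and stroma markers (6 of 7 found) summed to 24.3 to 91.9 CPM in the control and 57.3 to 155 CPM with PT-91, and granulosa markers to 17.4 to 87.5 CPM and 53.8 to 97.7 CPM, so that the groups overlapped. Fshr, a defining granulosa marker, had no read in 7 of the 16 libraries. Early germ cell markers summed to 425 to 620 CPM in the control and 255 to 570 CPM with PT-91. The part of these measures in the sycp3 result was not tested.

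The other members tested with PT-91 overlapped the control. Spo11 was at 37.4, 30.0, 20.1, and 25.8 CPM, with a log2 fold change of -0.18 (interval -0.91 to 0.55). Sycp2 was at 1.15, 26.8, 3.01, and 6.19 CPM and thus held both the highest level of all 16 libraries and one of the lowest, with a log2 fold change of 0.57 (-1.57 to 2.70) that was -0.95 without PT-91 2. The chromosome row of sycp1 had 0.44 (-2.73 to 3.60), which was -2.30 without PT-91 2 and -4.45 without the 3 libraries of high mitochondrial share, and the alternate row had 1.05 (-1.02 to 3.12). None of these was called. Rec8b had no read in any PT-91 library, which allows up to 0.0643 CPM over the group, against 6 reads in the control. Hormad1 had 6, 18, 1, and 7 reads with PT-91 and 3, 8, 3, and 3 in the control. It overlaps ensab on the opposite strand. Msh4 had 7, 0, 5, and 1 reads with PT-91, and DESeq2 gave it a log2 fold change of -2.61 against the control (unadjusted p = 0.0397, adjusted p = 0.538).

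**Figure D5:**
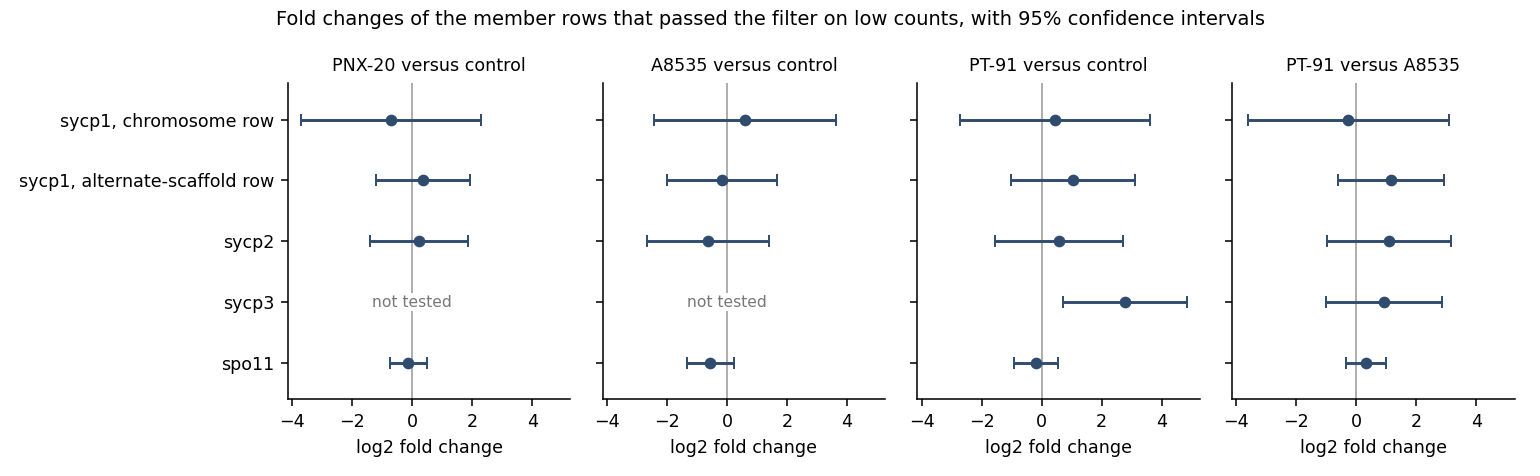
Log2 fold changes (x axes) of the member rows that passed the filter on low counts, with 95% confidence intervals from edgeR, for each of 4 comparisons. All intervals include 0 except that of sycp3 in PT-91 versus control (0.71 to 4.85, edgeR adjusted p = 0.712). Sycp3 passed the filter only in the comparisons with PT-91, the group where it was highest. Spo11 has the narrowest intervals.

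A8535 and PT-91 are sulfonamide benzamides that differ on the benzamide ring, where A8535 carries chlorine atoms and PT-91 a methoxy and a trifluoromethyl group. They were given at the same dose and time and were compared directly in one fit of 16 libraries, as the 1 pair of compounds that matched. None of 5 member rows was called, nor was any of 19216 rows (0%), with 0 member rows and 435 rows in all (2.26%) at an unadjusted p under 0.05. DESeq2 called 3 rows (0.0113%; 3.49% at an unadjusted p under 0.05), none of them a member. Sycp3 was at 1.33 to 1.97 CPM with PT-91 and 0.339 to 1.07 CPM with A8535. PT-91 was above A8535 in every library, as in 0.489% of the rows tested (1.22% in either direction), but the log2 fold change was 0.91 with an interval of -1.03 to 2.84 (edgeR adjusted p = 0.967). With the sets of libraries as a block in limma-voom it was 1.25 (unadjusted p = 0.0483, adjusted p = 0.731), a p that may be too small for sycp3. Limma-voom without the block gave 0.97 (unadjusted p = 0.218, adjusted p = 0.894). For spo11 the difference was 0.31 (-0.35 to 0.98), for sycp2 1.096 (-0.97 to 3.16), for sycp1 -0.27 (-3.63 to 3.08), and for its alternate row 1.15 (-0.61 to 2.92). Without A8535 4 the value of sycp2 was 2.47 (edgeR adjusted p = 0.999). The intervals of sycp2, the alternate row of sycp1, and sycp3 include a level 4-fold higher with PT-91 but not one 4-fold lower, and that of the chromosome row of sycp1 includes both. PNX-20 was given at another dose and was not set against the agonists.

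Of 113 other genes in the 7 lists of meiosis and recombination, 85 were found by name. Of the 75 tested in PNX-20 against control, 0 had an unadjusted p under 0.05. For A8535 it was 1 of 75 (1.33%, against 2.48% of all rows), with an edgeR adjusted p of 0.999. For PT-91 it was 5 of 74 (6.76%, against 6.81% of all rows), which is the background share. None passed the adjustment. The median log2 fold change of the listed genes was -0.12 (PNX-20), -0.21 (A8535), and -0.24 (PT-91), beside -0.02, -0.04, and 0.00 for all rows.

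The synaptonemal complex list held 2 further genes. Syce2 had 21.0, 20.6, 20.7, and 6.16 CPM in the control and 66.8, 123, 29.8, and 21.5 CPM with PT-91. Every PT-91 library was thus above every control, at the closest 21.5 against 21.0 CPM, as held for 1.22% of all rows tested. The log2 fold change of syce2 was 1.88 ± 0.61 (edgeR unadjusted p = 0.0112, adjusted p = 0.712). It was 1.22 without PT-91 2 and 0.60 without the 3 libraries of high mitochondrial share and was 0.83 with the sets of libraries as a block in limma-voom. A8535 2, the third of those libraries, had 90.2 CPM against 16.7 to 23.9 CPM in the rest of its group. Sycp2l, the most abundant gene of the list at 156 CPM, had no p under 0.05 in any comparison.

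Among strand exchange genes, rpa3, a subunit of the protein that coats single-stranded DNA, had a log2 fold change of 1.49 with PT-91 (edgeR adjusted p = 0.712), 0.85 without PT-91 2, and 0.35 without the 3 libraries of high mitochondrial share. Rpa1 and rpa2, the other subunits, were at 292 and 106 CPM and had no p under 0.05. In PT-91 versus A8535, zswim7 had 1.06 (edgeR adjusted p = 0.967; 0.67 without PT-91 2). In the crossover and mismatch repair list, 16 of 20 genes tested had a negative log2 fold change with PT-91, 19 of 20 with A8535, and 15 of 20 with PNX-20, with medians of -0.43, -0.29, and -0.28. Of all rows tested, 49.8%, 53.6%, and 51.4% were negative, and the 3 comparisons share the same 4 control libraries. In the same order, 11, 15, and 13 of 23 strand exchange genes were negative. Checkpoint genes had 7 of 12, 7 of 13, and 6 of 13, and axis genes 5 of 6 each time. Break formation genes had 4, 6, and 3 of 6, telomere attachment genes 3, 3, and 1 of 5, and synaptonemal complex genes 0, 1, and 1 of 2. Genes of a list share their libraries, so such counts are not independent. Eme1, part of a nuclease that resolves joint molecules, had 128, 161, 234, and 120 CPM in the control and 87.1, 69.8, 86.9, and 98.9 CPM with PT-91. These groups did not overlap, as in 2.73% of all rows tested (either direction), and the log2 fold change was -0.84 ± 0.28 (edgeR adjusted p = 0.712). With the sets of libraries as a block in limma-voom it was -0.48 (unadjusted p = 0.0516, adjusted p = 0.713).

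In the lists of the chromosome axis and of break formation no gene reached an unadjusted p under 0.05 in any comparison. Skp1, smc1al, and trip13 led the axis list at 227, 161, and 82.7 CPM, and nbn, mre11a, and rad50, which process broken ends, led the break list at 54.5, 45.4, and 28.9 CPM. In the checkpoint list, chek2, a kinase that responds to unrepaired breaks, had a log2 fold change of -1.34 with PT-91 on its primary row (edgeR adjusted p = 0.712), which was -0.63 without Control 3 and -0.37 with the sets of libraries as a block. Like sycp1, chek2 also has a row on an alternate scaffold, which was the more abundant at 59.5 against 20.3 CPM and had a log2 fold change of 0.088 with PT-91 (edgeR adjusted p = 0.967). Its primary row had 48.3 to 64.1 CPM in Control 3, A8535 1, and PNX-20 4 and 7.04 to 20.6 CPM in the other 13 libraries. Dazl, rad1, and chek1 led this list at 143, 108, and 65.7 CPM. Syne1b, a nuclear envelope protein gene of the telomere attachment list, had -1.34 in PT-91 versus A8535 (edgeR adjusted p = 0.967), and cdk2, spdya, and lmna led that list at 137, 60.7, and 33.3 CPM.

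Member rows that passed the filter on low counts over all 16 libraries did not vary together. Dmc1, hormad1, rec8b, and msh4 did not pass it and were left out. Pearson r of log2 CPM between different members among these rows lay between -0.38 (sycp3 and spo11) and 0.24 (sycp1 and spo11). Only the rows of sycp1 had a higher value, 0.56. The mean z-score of the primary member rows that passed was set against 11890 genes at a mean of at least 1 CPM. Those most like it were sepw2b, xaf1, triqk, ppp1r42, dscaml1, rps27a, nubpl, taf9, cacng5b, and cnpy4, with r of 0.776 to 0.826. Of these 10, dscaml1 alone was also among the 10 most alike by Spearman's rho. The genes most like a single member were lingo3a and limk2 for the chromosome row of sycp1, tdg.2 and jmjd7 for its alternate row, ccdc125 and adgrb2 for sycp2, hmg20b and fundc2 for sycp3, and tia1l and nabp1b for spo11. The highest of these was tdg.2, with r of 0.962 with the alternate row of sycp1. Over the 11890 genes searched, the 99th percentile of r was 0.811 for that row and 0.661 for the mean z-score. For the other member rows it was 0.589 to 0.644.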

How the data were processed

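Poly(A) RNA of 16 zebrafish ovary libraries was sequenced with a directional protocol. Per the methods and the submitters' processing notes, fastp was used for read cleaning, HISAT2 2.0.5 for alignment, GRCz11 as the genome, and featureCounts 1.5.0-p3 for the deposited counts per gene. The deposited FPKM values, made by the authors from counts and gene length, served only as an alternative to CPM per kilobase. The deposited signal values are counts that the authors divided by DESeq2 size factors, and were not used. The log2 fold changes and p-values of the authors' DESeq2 comparisons were not used either. Control counts were identical in the 3 tables.

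The tests here used edgeR 4.0.16 under R 4.3.3 (filterByExpr, TMM, robust quasi-likelihood F test), each treatment against the control on 8 libraries and PT-91 against A8535 on 16, with Benjamini-Hochberg adjustment over all rows tested and a threshold of 0.05. Log2 CPM used a prior count of 2. Alternatives were RLE and library size scaling, no filter or a stricter one (1 CPM in 4 libraries), DESeq2 1.42.0, the sum of the copies of a gene, a block for the replicate number, other libraries in the fit, and each library left out. Leaving out the 3 libraries of high mitochondrial share and limma-voom (limma 3.58.1), without and with the sets of libraries as a random block, were added after the data were seen, as were the sets, which link libraries at r over 0.5. The fits were tried on simulated data with known changes. The pass rules there used a smaller spread between libraries than most rows here had. They do not measure how the fits do on rows such as those of sycp1. Plots were made with matplotlib 3.10.9 under Python 3.11.15.

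The members and lists were chosen with earlier results of these data known. Genes named were all members, of each other list those at an unadjusted p under 0.05 and up to 3 of the most abundant, and the genes most alike by r. Outside this rule mnd1, psmc3ip, msh5, hfm1, smc1b, and rad21l1 were named after their values were seen. Some genes that met the rule are not reported here. P-values treat libraries as independent, although sections of one fish were shared out among treatments.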

Additional observations from a re-analysis of the deposited data

Results flagged for a closer look

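In 6 of 40 groups of 4 libraries that were examined, 1 library lay far from the other 3. Chance marks about 1 group in 20 where values are normally spread, and the rate for low, skewed counts such as these was not determined. The chromosome row of sycp1 was at 16.4 CPM (148 reads) in PT-91 2 and at 0.0753 to 1.88 CPM in the other PT-91 libraries. Sycp2 was at 12.4 CPM in A8535 4, a library of set 1, and at 0.904 to 2.21 CPM in the rest of that group. Dmc1 was at 0.593 CPM (7 reads) in the same library and at 0 in the other 3, while the other libraries of set 1 had 11 reads each. Msh4 was at 5.00 CPM (56 reads) in Control 4, against 0.248 to 0.881 CPM in the other controls. Hormad1 was at 0.641 CPM (8 reads) in Control 2, against 0.248 to 0.292 CPM. Rec8b was at 0.455 CPM (5 reads) in PNX-20 4 and at 0 in the other PNX-20 libraries.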

How the results depend on the processing

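Of 334 log2 fold changes of members under the alternatives, 299 kept the sign of the reported value, 35 reversed, and 0 had an adjusted p under 0.05. Cause was not tested for any change. With copies summed, sycp1 reversed to 0.17 for PNX-20 and to 0.74 for PT-91 versus A8535. With the replicate block, sycp1 reversed to -0.50 and its alternate row to 0.21 for A8535, and sycp1 to -0.59 for PT-91. The numbers did not pair all libraries (same-numbered pairs correlated from -0.28 to 0.58, and 7 of 16 libraries correlated best with their own number). PNX-20 3, A8535 3, and PT-91 3 form set 3, and A8535 4 and PT-91 4 are in set 1. Control 1 in set 1 and the libraries of set 2, Control 3 and A8535 1, have numbers that differ from those of their set. Under the block, rows at an unadjusted p under 0.05 were 271, 223, and 769 for PNX-20, A8535, and PT-91. Without the 3 libraries of high mitochondrial share, sycp1 reversed to -0.44 for A8535 and to -4.45 for PT-91, the alternate row to -0.97 and sycp2 to -0.54 for PT-91, and in PT-91 versus A8535 the alternate row reversed to -0.16, sycp2 to -0.16, and spo11 to -0.044, and the counts were 320 for PT-91 and 121 for PT-91 versus A8535. In limma-voom, sycp1 reversed to -0.14 and its alternate row to 0.13 for A8535, and sycp1 to -1.01 and sycp2 to -0.19 for PT-91. Limma-voom filtered rows over all 16 libraries, so that sycp3 entered its A8535 comparison. There 1 member row (sycp3) had an unadjusted p under 0.05. The sets of libraries as a block entered with the same consensus correlation of 0.74 for all rows. In that fit spo11 reversed to 0.20 for PNX-20 and the alternate row of sycp1 to 0.27 for A8535. For PT-91, sycp1 reversed to -0.10 and sycp2 to -0.26. The counts were 654, 1472, and 1225 for PNX-20, A8535, and PT-91 versus A8535, where 1 was a member (sycp3).

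Without a filter, rows at an unadjusted p under 0.05 were 962, 844, 1836, and 896 for PNX-20, A8535, PT-91, and PT-91 versus A8535, with 1 member row for A8535 (msh4) and 1 for PT-91 versus A8535 (rec8b), and 1 row passed the adjustment for PT-91. DESeq2 gave 959, 1004, 1843, and 931 rows, with 1 member row for A8535 and 2 for PT-91, and called 37, 4, 35, and 3 after adjustment. With each library left out, the counts ranged from 360 to 1095, 205 to 800, 503 to 2098, and 276 to 1527, and the member rows from 0 to 1 for A8535 and for PT-91 versus A8535. In these fits sycp1 ranged from -0.44 to 1.14 for A8535, from -2.30 to 0.87 for PT-91, and from -2.92 to 0.77 for PT-91 versus A8535. Its alternate row ranged from -0.0064 to 0.87 for PNX-20 and from -0.75 to 0.40 for A8535. Sycp2 ranged from -0.35 to 0.51 for PNX-20, from -0.95 to 0.86 for PT-91, and from -0.32 to 2.47 for PT-91 versus A8535, and spo11 from -0.23 to 0.043 for PNX-20. Few reads limit dmc1, rec8b, hormad1, msh4, and sycp3, and the spread between libraries limits sycp1 and sycp2.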
